A study of Arabidopsis thaliana with 42 samples.

Results

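Group S1 bZIP factors are 5 Arabidopsis transcription factors whose messenger RNAs carry a short reading frame upstream of the main one, an upstream open reading frame (uORF), through which sucrose represses their translation. The 5 genes are BZIP1 (AT5G49450), BZIP2 (AT2G18160), BZIP11 (AT4G34590, listed as GBF6 in the reference annotation), BZIP44 (AT1G75390) and BZIP53 (AT3G62420). They were taken by locus, with no measured value used, and make up 5 of the 27655 genes listed and 6 of 48359 transcripts, BZIP44 having 2. Their levels were measured in 42 libraries of stranded messenger RNA from whole seedlings of the Columbia-0 background, 10 days old, in 14 groups of 3 libraries. The mutant carries upf3-1 and upf1-5 and is called upf here; the labels call it NMD-compromised, NMD (nonsense-mediated decay) being the route by which messenger RNAs whose reading frames end early are degraded. The upf groups were unheated seedlings (0 min) and seedlings held at 44 °C for 15, 30, 45 and 90 min. A further 4 groups were wild type (WT) held at 44 °C for the same times in liquid medium to which the translation inhibitor cycloheximide (CHX) had been added, at 10 µg/L according to the labels. The remaining 5 groups were WT at 0, 15, 30, 45 and 90 min without CHX. All seedlings had grown on plates with 0.5% sucrose, and a library pooled multiple plants per the series text.

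bZIP proteins bind DNA as dimers, and S1 factors pair preferentially with bZIP factors of group C, some of which are phosphorylated by the energy sensor kinase SnRK1. When sugar is scarce the pairs switch on genes of amino acid breakdown and of nitrogen storage, such as ASN1 (asparagine synthetase) and the proline dehydrogenases ERD5 and PDH2. When sucrose is plentiful the peptide encoded by the uORF stalls ribosomes and less of the main protein is made. A uORF also leaves a stop codon ahead of the main reading frame, and this is a feature that can bring a messenger RNA under NMD, while some uORF transcripts escape it.

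The 5 uORFs are shown because this reading frame is what the 5 genes have in common. Each line gives the last 30 bases of the annotated uORF, 5′ to 3′, with its stop codon in capitals, as read from the RefSeq TAIR10.1 genome.
BZIP1: attcttcattggttttacgttatctctTGA
BZIP2: ttcctctactggttttacaacgtttcaTGA
BZIP11: ttcctttactggctttactatgtctcaTGA
BZIP44: tttctctactggttctatgttttctcaTAA
BZIP53: tacctctactacacctacgttttctcaTGA
BZIP44 ends in TAA, and the other 4 end in TGA. The stretches lie at chr5:20052105-20052134 (plus strand), chr2:7898917-7898946 (minus strand), chr4:16522197-16522226 (plus strand), chr1:28292051-28292080 (plus strand) and chr3:23092467-23092496 (minus strand) in the order of the lines. Whole uORFs encode 25 residues in BZIP1, 28 in BZIP53, 41 in BZIP2 and in BZIP44 and 42 in BZIP11. The encoded peptides were most alike between BZIP2 and BZIP44 (75.6% of 41 aligned residues identical) and between BZIP11 and BZIP44 (70.7%), and least alike between BZIP1 and BZIP2 (36%). For the main proteins identity ran from 25.6% (BZIP1 and BZIP53) to 57.4% (BZIP11 and BZIP44).

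**Figure D1:**
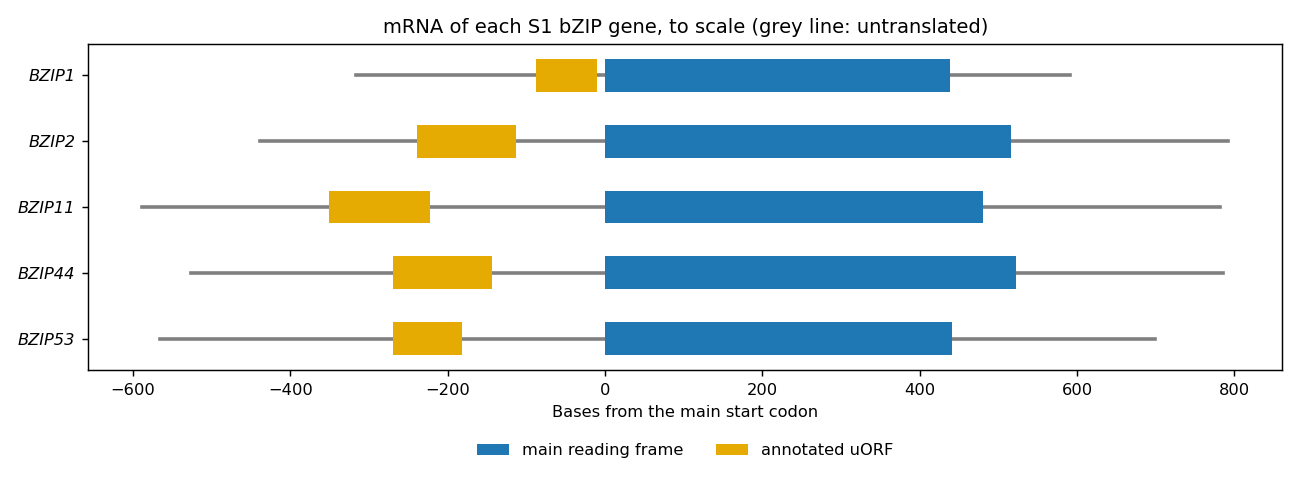
The main messenger RNA of each gene drawn to scale, in bases from the main start codon, with the annotated uORF in yellow, the main reading frame in blue and untranslated parts as a grey line. The uORF of BZIP1 ends 10 bases before the main start codon, and that of BZIP11 ends 222 bases before it.

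Distance from the uORF stop to the main start codon was 10 bases in BZIP1, 113 in BZIP2, 143 in BZIP44, 182 in BZIP53 and 222 in BZIP11. Only the uORF of BZIP11 is in frame with the main reading frame. The main transcript of all 5 genes has a single exon, as have 21.5% of 27443 coding genes, so no exon junction follows the stop codon of their uORF or of their main frame. BZIP44 has a second listed transcript with 1 intron, whose junction lies 458 bases after the uORF stop. It stood between 0 and 10 normalized counts in the 42 libraries (median 3.5, or 1.04% of the gene), did not pass the filter on low values, and its usage could not be tested. No stretch of 31 bases of the 5 genes occurs in the transcripts of another gene.

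The deposited values are normalized counts, whole numbers per transcript that the authors scaled between libraries; their sum per library ran from 14.7 to 30.96 M (M for 1e+06) and was higher in heated groups. UPF1 and UPF3, the genes mutated in upf, averaged 636 ± 161 and 170 ± 25.8 normalized counts in unheated upf, against 2150 ± 140 and 655 ± 13.6 in unheated WT (SD, n = 3 each). The chaperone gene HSP101 stood at 621146 ± 20475 in WT after 90 min, against 619 ± 129 at 0 min. Summed levels of 7 root markers (PYK10, SCR, WOX5, COBL9, EXPA7, PIN2 and TIP2;3) were lower at 90 min: in upf 2819 to 3441 at 90 min, against 27023 to 30296 at 0 min, and in WT 5794 to 6791 at 90 min, against 30801 to 41227 at 0 min. In WT at 15 min the sum was 32404.5 to 39348.5, within the range at 0 min, and WOX5 alone among the 7 was called higher at every time in upf, in WT with CHX and in WT (log2 change at 90 min 2.68, 1.87 and 2.95). Their sum was 33392 to 38150 at 15 min and 4120 to 4864 at 90 min with CHX. Summed levels of 5 seed maturation markers were 4494 to 8132 in unheated upf, against 182 to 6105 in unheated WT, and no marker of either list was at 0 in all libraries of a group. In whole seedlings, fewer cells of a type and less RNA per cell cannot be told apart. No unheated group was sampled after 0 min, so heat and time since 0 min cannot be told apart either. No unheated group received CHX, so effects of CHX and of heat cannot be told apart against unheated WT.

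The largest share of the S1 pool was that of BZIP2 before heat and that of BZIP53 at 90 min. Levels were divided by transcript length for this comparison between genes. BZIP2 made up 63.7 ± 1.63% of the summed level per kb in unheated upf and 50.9 ± 2.08% in unheated WT, and BZIP53 made up 17.1 ± 0.510% and 23.0 ± 1.73% of it (SD, n = 3 each). At 90 min BZIP53 held 71.7 ± 0.591% in upf, 72.9 ± 1.24% in WT with CHX and 77.1 ± 0.648% in WT. BZIP2 then held 15.9 ± 0.678% in upf, 10.8 ± 1.07% in WT with CHX and 6.01 ± 0.404% in WT. BZIP11, the S1 gene studied most for its sucrose response, held 3.43 ± 0.817% of the unheated pool in upf and 3.52 ± 0.388% in WT, the smallest mean share in both, and in upf its libraries overlapped those of BZIP44 (3.56 ± 0.175%). The summed level per kb was 5200 ± 74.0 in upf at 90 min, 4791 ± 523 in WT with CHX and 3457 ± 608 in WT, against 2484 ± 308 in unheated upf and 2379 ± 120 in unheated WT. That order depends on the scaling of the libraries: per 1e+06 of the library's own sum it was 216 ± 10.6 in upf at 90 min, 235 ± 31.8 in WT with CHX and 126 ± 29.1 in WT, against 164 ± 26.9 in unheated upf and 147 ± 11.01 in unheated WT, so WT at 90 min was then below unheated WT on the mean, with overlapping libraries.

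**Figure D2:**
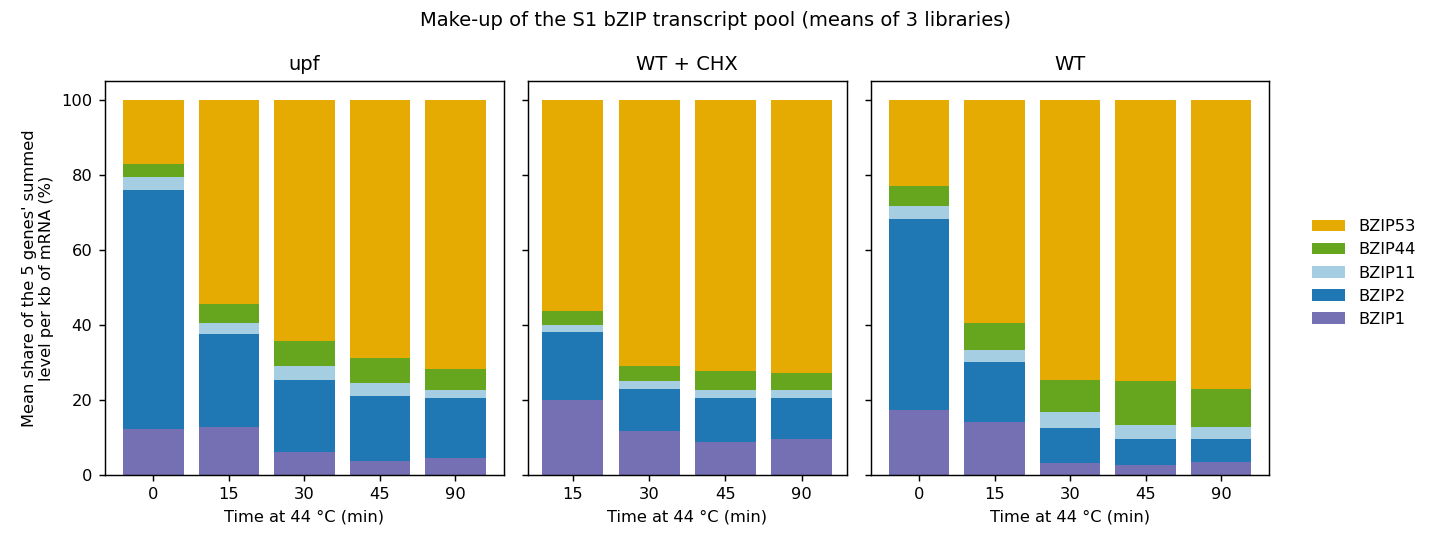
Mean share of each gene in the summed level per kb of the 5 genes (%), by time at 44 °C (min), in upf, in WT with CHX and in WT; each stack is the mean of 3 libraries. The BZIP53 share was 17.1% in upf and 23.0% in WT at 0 min, and 71.7% in upf, 72.9% in WT with CHX and 77.1% in WT at 90 min.

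In heated WT the 5 genes changed in different directions from 0 min. BZIP53, known from seed maturation and, with BZIP1, from low-energy and salt responses, rose at every time, as did BZIP44, which is known from seed germination. BZIP2 fell at every time and BZIP1 from 30 min on, while BZIP11 peaked at 30 min. In limma fits across 20747 genes, a call being an adjusted p under 0.05 with at least a 2-fold change, 9 of the 20 member values (5 genes at 4 times) were called higher and 7 lower. The 4 values of a gene share the same unheated libraries, so the 20 are not independent. Higher calls came from BZIP53, BZIP44 and BZIP11, and lower calls from BZIP2 and BZIP1. Over all genes, 8.92, 11.5, 12.7 and 12.2% were called higher and 5.27, 16.8, 20.8 and 23.6% lower at 15, 30, 45 and 90 min. The median log2 change of the 5 members was 0.54 at 15 min and 0.36 at 90 min, where over all genes it was -0.06 and -0.14. Both medians of the 5 are the values of BZIP11, which were not called, so they do not describe a shift shared by the members. Between 34.0 and 62.9% of all calls were higher over the 4 times, and between 13.3 and 50.0% when libraries were scaled to equal totals; that scaling put the median of all genes at -0.90 at 90 min.

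BZIP53 stood at 661, 719.5 and 695 normalized counts in the 3 WT libraries at 0 min. It stood at 3413.5, 2168.5 and 2871 at 15 min, at 4481, 4350.5 and 4262.5 at 30 min, at 4163, 3575 and 3489 at 45 min and at 4054.5, 3174.5 and 2886 at 90 min. Every heated WT library was above every unheated one. The log2 change was 2.00 ± 0.19 (SE) at 15 min, 2.66 at 30 min, 2.43 at 45 min and 2.27 at 90 min, with adjusted p-values (limma) between 7.5e-14 and 1.76e-10. In upf BZIP53 stood at 450, 609 and 559.5 at 0 min, at 3179.5, 2811 and 2520.5 at 15 min, and at 4643, 4477.5 and 2578 at 30 min. It stood at 5133, 4592.5 and 4618 at 45 min and at 4703.5, 4799 and 4655 at 90 min in upf. Heated and unheated upf libraries did not overlap, and the log2 change was 2.40, 2.81, 3.15 and 3.14 at the 4 times. With CHX the gene stood at 3432.5, 2827.5 and 2873 at 15 min, at 3300.5, 5152 and 3492.5 at 30 min, at 3263, 5025.5 and 2892 at 45 min and at 3813, 4783 and 4665 at 90 min. Against unheated WT the CHX groups were higher by 2.13, 2.49, 2.39 and 2.67 on the log2 scale. BZIP53 was thus called higher at all 4 times in upf, in WT with CHX and in WT.

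BZIP44 stood at 151.5, 144.5 and 197.5 normalized counts in WT at 0 min, at 439.5, 234.5 and 365 at 15 min, and at 493, 428.5 and 643.5 at 30 min. It stood at 604, 642.5 and 582.5 at 45 min and at 531, 428.5 and 426.5 at 90 min. Unheated and heated WT libraries did not overlap. The log2 change was 1.04 ± 0.18 (SE) at 15 min, 1.65 at 30 min, 1.90 at 45 min and 1.49 at 90 min (limma, adjusted p from 6.42e-11 to 2.68e-05). The call at 15 min was lost when any 1 of 4 libraries was left out (WT at 0 min replicate 1 or 2, WT at 15 min replicate 1 or 3), with log2 changes of 0.84 to 0.98. In upf BZIP44 stood at 98.5, 134 and 115.5 at 0 min, at 294.5, 268 and 231 at 15 min, and at 370.5, 401.5 and 452 at 30 min. It stood at 521.5, 441 and 502.5 at 45 min and at 358.5, 450 and 366.5 at 90 min, so heated and unheated upf libraries did not overlap either. The log2 change in upf was 1.19, 1.81, 2.07 and 1.75. With CHX the level was 243.5, 227 and 158 at 15 min, 191.5, 240 and 243.5 at 30 min, 224.5, 299 and 238.5 at 45 min and 270, 312 and 282.5 at 90 min. No CHX group was called against unheated WT, the log2 change being 0.34, 0.45, 0.63 and 0.82, and the CHX libraries at 15 and 30 min overlapped the unheated ones. Scaling to equal totals ended the calls at 15 and 90 min in WT (0.88 and 0.72) and at 15 min in upf (1.00).

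BZIP11, which controls ASN1, proline dehydrogenase and auxin genes, was low and varied most between replicates. In WT it stood at 114.5, 121 and 107 normalized counts at 0 min, at 233, 110.5 and 176.5 at 15 min, and at 254, 274 and 271.5 at 30 min. It stood at 223, 226 and 144 at 45 min and at 176.5, 168.5 and 106.5 at 90 min. The 30 and 45 min libraries were above all unheated ones, and those at 15 and 90 min overlapped them. Only the change at 30 min was called in WT, a log2 change of 1.22 ± 0.27 (SE; limma, adjusted p = 0.000276), and at 45 min it was 0.76 (adjusted p = 0.0151). In upf BZIP11 stood at 74, 153.5 and 130 at 0 min, at 183.5, 164 and 149 at 15 min, and at 191, 309.5 and 197 at 30 min. It stood at 284, 211 and 308.5 at 45 min and at 107.5, 213 and 144 at 90 min. The upf change was called at 45 min only, at 1.21 ± 0.27 (SE; limma, adjusted p = 0.000291), and it was 0.90 and not called without replicate 1 of unheated upf; at 30 min it was 0.99, and between 1.08 and 1.20 without any 1 of 4 libraries. Both calls were lost under scaling to equal totals, at 0.55 in upf at 45 min and 0.69 in WT at 30 min. With CHX the level was 121, 115 and 96.5 at 15 min, 102, 174 and 103 at 30 min, 103, 149 and 112.5 at 45 min and 146.5, 149.5 and 115 at 90 min. All 4 CHX groups overlapped unheated WT, with log2 changes from -0.05 to 0.25, and those at 30, 45 and 90 min turned negative under equal totals.

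BZIP2, a close relative of BZIP11 known to act on proline dehydrogenase, stood at 1544.5, 1384.5 and 1543.5 normalized counts in WT at 0 min and at 1043, 500.5 and 707.5 at 15 min. It stood at 538, 596.5 and 472 at 30 min, at 352.5, 383.5 and 281 at 45 min and at 327.5, 239.5 and 206.5 at 90 min. All heated WT libraries were below all unheated ones. The log2 change was -1.05 ± 0.23 (SE) at 15 min, -1.48 at 30 min, -2.14 at 45 min and -2.55 at 90 min (limma, adjusted p from 7.57e-12 to 0.000385). Without replicate 2 of WT at 15 min the change at that time was -0.79 and was not called, and in the authors' deposited table it was -0.994, just short of 2-fold. In upf the gene stood at 1723.5, 2129 and 1983 at 0 min, at 1337.5, 1433.5 and 1020 at 15 min, and at 1071, 1257 and 955 at 30 min. It stood at 1316, 1060.5 and 1118.5 at 45 min and at 971, 1016 and 1059 at 90 min. Heated upf libraries were below unheated ones too, but the log2 change was -0.63, -0.83, -0.74 and -0.93 and did not reach 2-fold at any time, with adjusted p (limma) between 0.000659 and 0.0365; without replicate 1 of unheated upf it was -1.02 at 90 min, and equal totals put it at -1.38, -1.40 and -1.59 at 30, 45 and 90 min. With CHX the level was 1133.5, 915.5 and 811.5 at 15 min, 507, 884.5 and 464 at 30 min, 458, 822.5 and 491 at 45 min and 571.5, 755 and 592.5 at 90 min. Against unheated WT the CHX groups were called lower at 30, 45 and 90 min, by log2 changes of -1.33, -1.38 and -1.23.

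BZIP1, a factor of low-energy signalling and of nitrogen responses, stood at 342.5, 345.5 and 433.5 normalized counts in WT at 0 min and at 488.5, 447.5 and 459.5 at 15 min. It stood at 99.5, 126.5 and 161.5 at 30 min, at 98.5, 88.5 and 95.5 at 45 min and at 127, 75.5 and 124.5 at 90 min. Levels at 15 min were all above those at 0 min, and those from 30 min on were all below them. The log2 change was 0.32 ± 0.20 (SE; limma, adjusted p = 0.234) at 15 min, -1.54 at 30 min, -1.97 at 45 min and -1.80 at 90 min (adjusted p from 1.08e-10 to 2.96e-08). The fall came between 15 and 30 min, a step of -1.87 ± 0.20 (SE; limma, adjusted p = 1.91e-09), called lower for 8.28% of all genes, and no other member value was called in the 3 steps between successive times in WT. In upf BZIP1 stood at 230, 274 and 318.5 at 0 min, at 423.5, 605.5 and 406.5 at 15 min, and at 272.5, 281.5 and 228.5 at 30 min. It stood at 212.5, 193 and 153.5 at 45 min and at 257, 150 and 225.5 at 90 min. The upf log2 change was 0.79, -0.06, -0.56 and -0.40, under 2-fold at each time, and the libraries at 30 and 90 min overlapped the unheated ones; with equal totals it was -1.21 at 45 min and -1.06 at 90 min, both called. With CHX BZIP1 stood at 800, 713.5 and 787.5 at 15 min, at 427, 545.5 and 420 at 30 min, at 332.5, 338 and 260.5 at 45 min and at 372.5, 417 and 455.5 at 90 min. The CHX group at 15 min had the highest mean of the 14 groups and was called higher than unheated WT, at 1.04 ± 0.20 (SE; limma, adjusted p = 7.59e-05); without replicate 1 or 2 of unheated WT the change was 0.98 to 0.99, and under equal totals 0.98, neither called. At 30, 45 and 90 min the CHX groups differed from unheated WT by 0.31, -0.27 and 0.15.

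**Figure D3:**
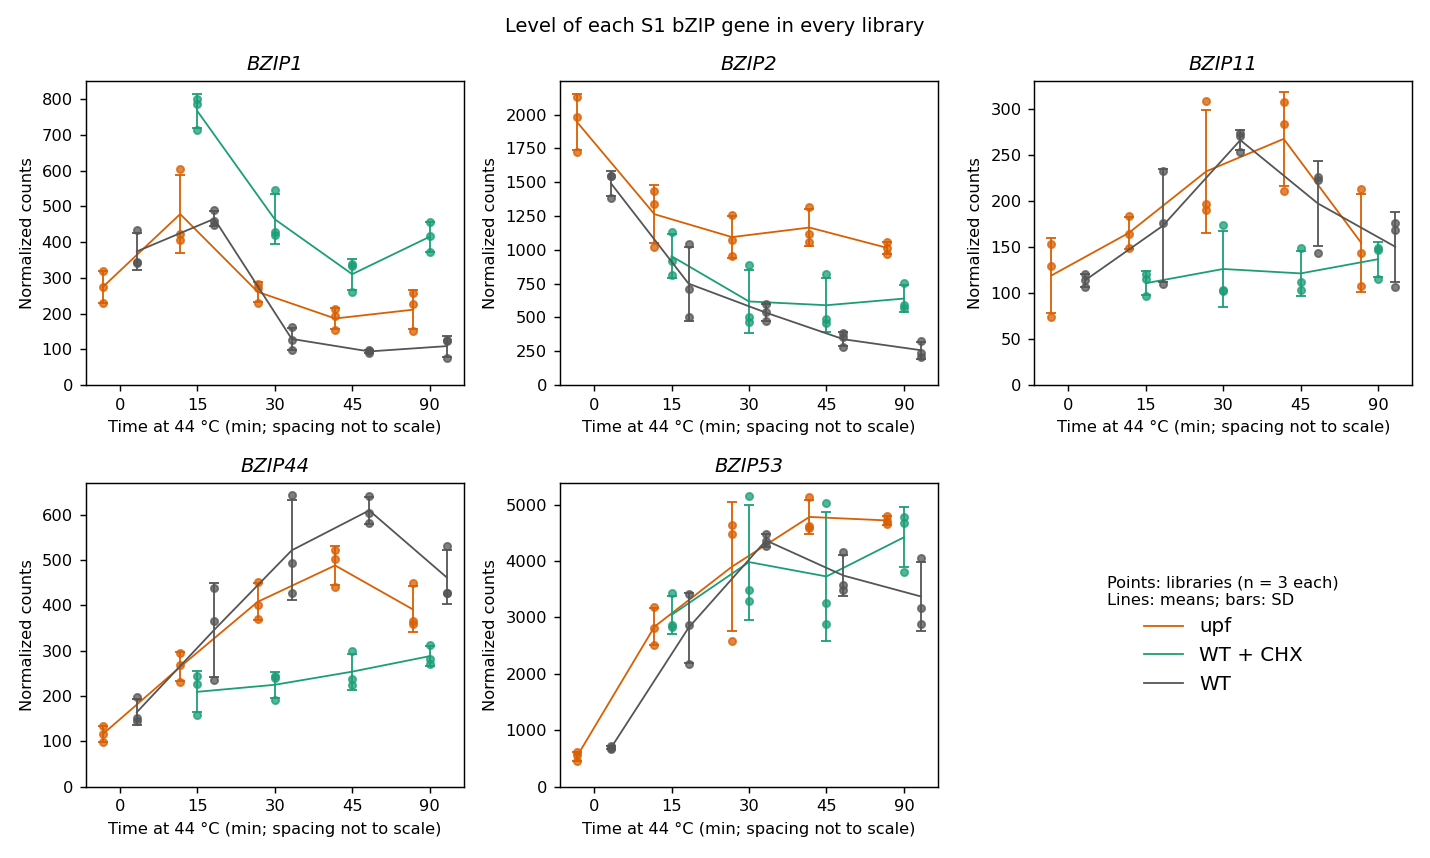
Normalized counts of each gene (y axis, from 0) by time at 44 °C (x axis, min), with every library as a point and the mean and SD of each group of 3 as a line and bar, for upf, WT with CHX and WT. BZIP53 rose from 0 min in upf and in WT, and with CHX, which has no 0 min group, it stood above unheated WT. The means of BZIP44 and BZIP11 were lowest with CHX at 30 and 45 min. From 30 min on the means of BZIP1 and BZIP2 were lowest in WT without CHX.

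Counted over the 5 genes and 4 times, 9 of 20 values were called higher and 0 lower in upf against unheated upf (limma; 6 were lower at an unadjusted p under 0.05), where 8.03, 10.7, 11.4 and 11% of all genes were called higher at the 4 times, and 4.65, 13.7, 17.7 and 20.1% lower. In WT with CHX against unheated WT 5 of 20 were called higher and 3 lower, where 9.37, 12.5, 12.4 and 12.4% of all genes were higher and 1.2, 5.29, 8.7 and 14.3% lower. Here too the 4 values of a gene share the same unheated libraries. Higher calls came from BZIP53, BZIP44 and BZIP11 in upf, and from BZIP53 and BZIP1 with CHX. The 3 lower calls with CHX were all of BZIP2. The share of all calls that were higher ran from 35.3 to 63.3% in upf and from 46.3 to 88.6% in WT with CHX, and under equal totals from 15.0 to 47.9% in upf and from 30.99 to 86.0% in WT with CHX. Levels of each gene were ordered over the 14 groups, and most neighbours in that order overlapped: 11 of 13 neighbouring pairs for BZIP1, BZIP2 and BZIP53, 12 for BZIP44 and 13 for BZIP11. The highest group mean was 8.86 times the lowest for BZIP53, 8.15 times for BZIP1, 7.54 times for BZIP2, 5.26 times for BZIP44 and 2.42 times for BZIP11.

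**Figure D4:**
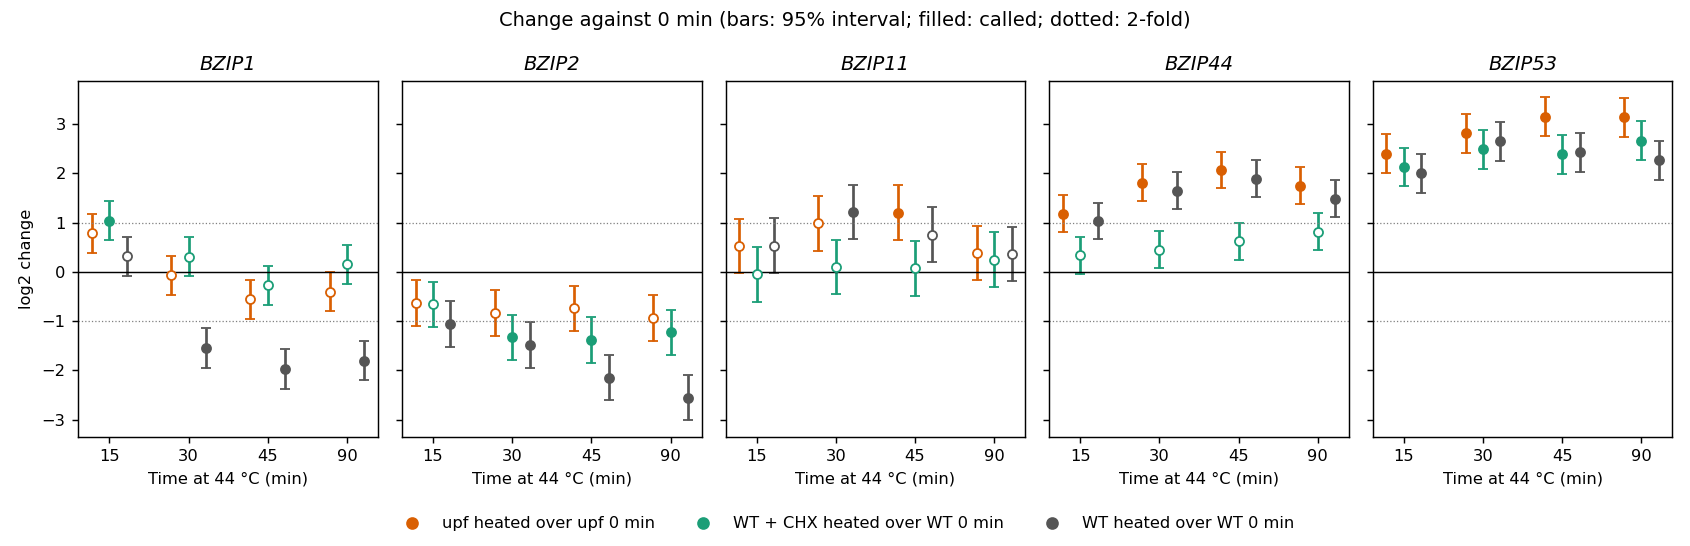
Log2 change against 0 min (y axis) by time at 44 °C (x axis, min) for each gene, in upf against unheated upf, in WT with CHX against unheated WT and in WT against unheated WT; bars are 95% intervals, filled points were called and dotted lines mark 2-fold. At 90 min BZIP2 stood at -0.93 in upf, -1.23 in WT with CHX and -2.55 in WT.

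Comparison of upf with WT at the same time asks which messenger RNAs differ when NMD is impaired. BZIP2 was higher in upf, 2.04-fold at 30 min, 3.44-fold at 45 min and 4.00-fold at 90 min, and BZIP1 was 2.04-fold higher at 30 min. These 4 were the calls among the 25 member values (5 genes at 5 times), where 5.99, 6.29, 8.18, 8.41 and 8.82% of all genes were called higher at 0, 15, 30, 45 and 90 min. The other 3 genes, whose uORFs are of the same family, had no value that reached 2-fold. Averaged over the 5 times, BZIP2 was called higher in upf by 1.20 ± 0.10 (SE) on the log2 scale (limma, adjusted p = 3.16e-12), as were 7.51% of all genes.

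For BZIP2 at 90 min the 3 upf libraries stood at 971 to 1059, against 206.5 to 327.5 in WT, so the groups lay far apart. The log2 difference was 2.00 ± 0.23 (SE; limma, adjusted p = 1.29e-08) at 90 min, 1.78 ± 0.23 (adjusted p = 1.33e-07) at 45 min and 1.03 ± 0.23 (adjusted p = 0.000754) at 30 min. At 15 min it was 0.80 (adjusted p = 0.00956) and the groups overlapped, and in unheated seedlings it was 0.38 (adjusted p = 0.276), with no overlap. The call at 30 min was lost with median-of-ratios scaling (0.99) and without replicate 2 of upf or replicate 3 of WT at that time (0.92 and 0.94); at 15 min the difference was 1.07 and called without replicate 1 of WT. BZIP1 differed by 1.03 ± 0.20 at 30 min (limma, adjusted p = 0.000117), 0.97 at 45 min (adjusted p = 0.000234) and 0.95 at 90 min (adjusted p = 0.000289), with no overlap at these times. Its call at 30 min was lost with median-of-ratios scaling (1.00, just under 2-fold), in lane 1 alone (0.98), in the authors' deposited table (0.992) and without any 1 of 3 libraries (0.86 to 1.00), and the values at 45 and 90 min were called at 1.14 under equal totals. At 0 min BZIP1 was lower in upf by a log2 difference of -0.45 (adjusted p = 0.112), and at 15 min the difference was 0.02.

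BZIP44 was slightly lower in upf at all 5 times, with log2 differences of -0.50, -0.35, -0.34, -0.32 and -0.24 and a mean of -0.35 ± 0.08 (SE; limma, adjusted p = 0.000493), under 2-fold. BZIP11 differed by between -0.23 and 0.45, with overlapping libraries at every time; its mean difference was 0.05, with a 95% interval from -0.20 to 0.29. BZIP53 differed by -0.37, 0.03, -0.21, 0.36 and 0.50 (adjusted p at 90 min 0.0478), a mean of 0.06 with an interval from -0.12 to 0.24. The intervals of these mean differences for BZIP11 and BZIP53 exclude a 2-fold difference in either direction. This holds for the means, which average values of both signs. At 45 min alone the BZIP11 interval reached 1.0003, which does not exclude 2-fold, and at 90 min that of BZIP53 ran from 0.11 to 0.89. Root markers summed to 2819 to 3441 in upf at 90 min, against 5794 to 6791 in WT, and seed maturation markers to 651 to 1561 in upf, against 104.5 to 291 in WT; their part in the differences was not tested.

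Heat response was then compared between the genotypes, as the change from 0 min in upf minus the change from 0 min in WT. The changes of BZIP1 and BZIP2 were less negative in upf than in WT. For BZIP1 this difference was 1.48 ± 0.28 (SE) at 30 min (limma, adjusted p = 0.00209), 1.42 at 45 min (adjusted p = 0.00156) and 1.40 at 90 min (adjusted p = 0.00184). Part of each BZIP1 value is the uncalled 0 min difference of upf over WT, -0.45 (limma, adjusted p = 0.112). In heated seedlings BZIP1 in upf over WT was 1.03, 0.97 and 0.95 at these times, called at 30 min only. For BZIP2 the difference in the change from 0 min was 1.40 ± 0.32 (SE) at 45 min (limma, adjusted p = 0.00805) and 1.62 at 90 min (adjusted p = 0.00191), and 0.65 at 30 min (adjusted p = 0.515). Of the 20 member values, 5 were called higher, where 0.0145, 0.689, 1.62 and 1.9% of all genes were called higher at 15, 30, 45 and 90 min. The 5 came from BZIP1 and BZIP2 alone, and the values of a gene share the unheated libraries of both genotypes. BZIP53 had a difference of 0.87 ± 0.27 (SE) at 90 min (adjusted p = 0.0738), which was 1.01 and called without replicate 1 of WT at 90 min. For BZIP44 the difference ran from 0.15 to 0.26 and for BZIP11 from -0.23 to 0.45, with adjusted p-values of 0.656 or more.

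CHX blocks translation, on which NMD depends, and in heated WT it was compared with heat alone at the same time. The unit of the labelled dose could not be checked, and how far translation was blocked was not measured in the data used here. BZIP1 was higher with CHX, 3.62-fold at 30 min, 3.25-fold at 45 min and 3.87-fold at 90 min, and BZIP2 was 2.50-fold higher at 90 min. BZIP44 was 2.29-fold lower at 30 min and 2.41-fold lower at 45 min, and BZIP11 2.17-fold lower at 30 min. Thus 4 of 20 member values were called higher and 3 lower, where 4.24, 12.6, 12.1 and 13.5% of all genes were called higher and 0.492, 2.44, 2.48 and 2.77% lower at 15, 30, 45 and 90 min. BZIP53 had no called value. The 3 lower values were not called under scaling to equal totals (-0.93 at both times for BZIP44, -0.85 for BZIP11), which put the median of all genes at 0.32, 0.39 and 0.50 at 30, 45 and 90 min against 0.06, 0.06 and 0.08 without it; with it 95.6% and 96.8% of all calls at 45 and 90 min were higher, against 83.0% and 83.0%.

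For BZIP1 the CHX libraries were above those heated without it at every time; at 90 min they stood at 372.5 to 455.5, against 75.5 to 127. The log2 difference was 0.72 ± 0.20 (SE; limma, adjusted p = 0.0102) at 15 min, 1.85 at 30 min, 1.70 at 45 min and 1.95 at 90 min (adjusted p from 8.35e-10 to 1.83e-08), and its mean over the 4 times was 1.56 ± 0.10 (SE; adjusted p = 2.06e-15), called higher for 9.35% of all genes. BZIP2 differed by 0.40, 0.15, 0.76 (adjusted p = 0.00734) and 1.32 ± 0.23 (SE; limma, adjusted p = 1.44e-05), and only the 45 and 90 min libraries did not overlap; the value at 45 min passed 2-fold and was called under equal totals. The CHX effect on BZIP1 was larger at 90 than at 15 min by 1.23 ± 0.28 (SE; limma, adjusted p = 0.00218), a difference called higher for 5.3% of all genes; it was 0.99 and not called without replicate 2 of WT at 90 min. For BZIP2 this difference was 0.93 (adjusted p = 0.0455), and between 1.06 and 1.19 and called without any 1 of 3 libraries (replicate 2 of WT at 15 min, replicate 1 of WT at 90 min, replicate 1 with CHX at 15 min).

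For BZIP44 the log2 difference with CHX was -0.70, -1.20 ± 0.18 (SE; limma, adjusted p = 3.19e-06), -1.27 (adjusted p = 1.23e-06) and -0.67, with a mean over the 4 times of -0.96 ± 0.09 (SE; adjusted p = 6.22e-11). That mean was just under 2-fold, and it passed 2-fold and was called lower with median-of-ratios scaling (-1.02), in lane 1 alone (-1.06) and without replicate 2 of WT at 15 min (-1.02). At 45 min the 3 libraries with CHX stood at 224.5 to 299, against 582.5 to 642.5 without it. For BZIP11 it was -0.58, -1.12 ± 0.27 (SE; limma, adjusted p = 0.00123), -0.69 (adjusted p = 0.0404) and -0.11, and the libraries overlapped at all times but 30 min. The BZIP11 call was lost without replicate 1 or 3 of the CHX group at 30 min (-0.99 in both cases). BZIP53 differed by 0.13, -0.16, -0.04 and 0.40, with overlapping libraries at every time and a mean of 0.08 with a 95% interval from -0.12 to 0.28; the sign of the values at 30 and 45 min flipped under equal totals. Root markers summed to 27052 to 33689 with CHX at 30 min, against 10368 to 17576 without it, and to 4120 to 4864 at 90 min, against 5794 to 6791; their part in these differences was not tested.

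**Figure D5:**
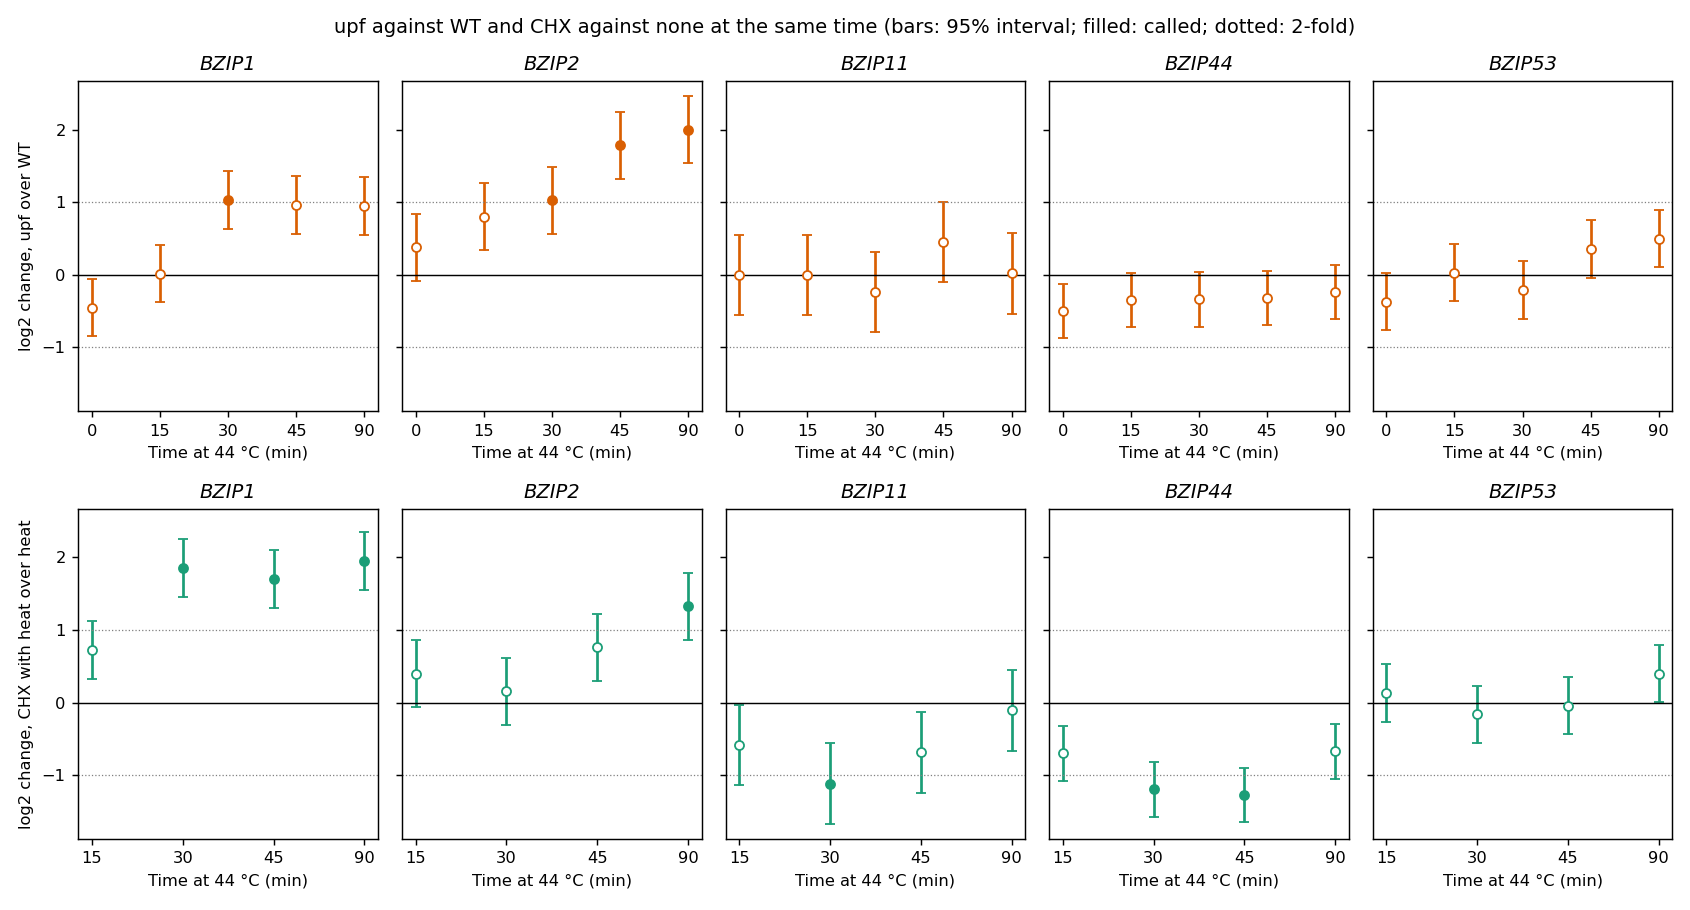
Log2 difference of upf over WT (upper row) and of heat with CHX over heat alone (lower row) at the same time at 44 °C (x axis, min) for each gene; bars are 95% intervals, filled points were called and dotted lines mark 2-fold. BZIP2 reached 2.00 in upf and 1.32 with CHX at 90 min, and BZIP44 was -1.27 with CHX at 45 min.

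Set side by side at 90 min, BZIP1 differed by 0.95 in upf over WT and by 1.95 with CHX over heat alone, BZIP2 by 2.00 and 1.32, BZIP11 by 0.02 and -0.11, BZIP44 by -0.24 and -0.67, and BZIP53 by 0.50 and 0.40. The heated WT libraries at 90 min are the same in both comparisons, so the 2 sets of values are not independent.

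Upstream of the genes, 250 bases before the annotated start were searched on both strands for the core bound by bZIP factors (ACGT), for the G-box (CACGTG), C-box (GACGTC) and ACTCAT, and for paired units of the heat shock element (GAANNTTC and TTCNNGAA), where N is any base. GAANNTTC was present in BZIP1, BZIP11, BZIP44 and, in 2 places, BZIP53, with no match in BZIP2, and 9.55% of 27443 promoters of this length hold it. Neither form of 3 units in a row was found in any of the 5 windows, and 0.386% of promoters hold each. The matched 8 bases begin 107 bases before the start in BZIP1, 80 in BZIP11, 220 in BZIP44, and 212 and 186 in BZIP53. BZIP53 also holds ACGT once, 168 bases before the start, as 44.1% of promoters do, and the other motifs were not found in the 5 windows. The BZIP53 window is printed since this gene was called higher at every time in upf, in WT with CHX and in WT and since it holds GAANNTTC in 2 places, shown in capitals (chr3:23092851-23093100, minus strand, RefSeq TAIR10.1). A match is a description of these letters only.
BZIP53: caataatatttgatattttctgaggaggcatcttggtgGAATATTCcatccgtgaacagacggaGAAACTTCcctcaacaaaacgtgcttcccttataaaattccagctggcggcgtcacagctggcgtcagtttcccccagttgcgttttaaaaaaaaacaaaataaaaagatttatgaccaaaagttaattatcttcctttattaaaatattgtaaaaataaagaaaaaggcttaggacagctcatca

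Genes around the S1 factors were described from lists of known partners and targets. Of the 4 group C partners and the 6 SnRK1 subunits, BZIP25 alone was called in WT, at 45 min (log2 change 1.01, just over 2-fold). At that time 12.7% of all genes were called higher and 20.8% lower. All partners and subunits stayed under 2-fold at 90 min, with log2 changes from -0.65 (BZIP63) to 0.89 (BZIP25) among the partners and from -0.62 (KINB2) to 0.33 (KINB3) among the subunits. Of 23 target and sugar starvation genes, 5 were called higher at 90 min in WT, with GH3.3 (an auxin-conjugating enzyme) at 2.07, ASN1 at 2.00 and MIOX2 (an inositol oxygenase) at 1.96, and 6 lower, with DIN2 (a glucosidase) at -2.55, IAA3 (an auxin repressor) at -1.74 and EXL2 at -1.50. Over all genes 12.2% were called higher and 23.6% lower. The median log2 change of the 23 was 0.40, where it was -0.14 over all genes. As a mean over the times in upf against WT, IAA3 (2.40) and DIN2 (1.15) were called higher and SEN1 (-1.11) lower, with a median of -0.15 over the 23 genes, where 7.51% of all genes were called higher and 1.07% lower with a median of -0.05. With CHX, as a mean over 4 times, IAA3 (2.94), EXL2 (1.99) and TPS11 (1.41, a trehalose phosphate synthase family member) were called higher, with a median of 0.38 over the 23 genes, where 9.35% of all genes were called higher with a median of 0.05.

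Other genes with a conserved uORF give the members' values a scale. Their list was chosen with earlier results of these data known, so this scale is not independent of the data. Of 11 such genes, 7 were called higher in upf as a mean over the times (median log2 difference 1.71), where 7.51% of all genes were. The 7 were led by XPL1 (3.50, a phosphoethanolamine methyltransferase) and SAC51 (2.85) and SACL1 (2.43), both thermospermine-responsive factors. Of the 5 S1 genes BZIP2 alone was called. With CHX as a mean over the times 5 of the 11 were called higher, led by SACL2 (1.98), SACL1 (1.85) and SAC51 (1.35), where 9.35% of all genes were and, of the 5 S1 genes, BZIP1 alone was. Of all 77 other tested genes with an annotated uORF, 27 were called higher in upf on the mean (median 0.57), where 7.51% of all genes were. Only the S1 genes were taken out of this set, so it can share genes with the 11. At 90 min in WT, 24 of the 77 were called lower and 7 higher (median -0.58), where 23.6% of all genes were called lower and 12.2% higher, and 2 of 5 S1 genes were called lower and 2 higher.

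The genes whose level over the 14 groups was most like that of each member were named by Pearson's r of log2 group means, among 15821 genes with a group mean of at least 100. For BZIP53 these were AT5G23130 (r = 0.996), AT2G32210 (0.991) and AT5G45630 (0.990). For BZIP44 they were GSTU6 (0.99), PUB45 (0.98) and HKL1 (0.98), a glutathione transferase, a ubiquitin ligase and a hexokinase-like protein. For BZIP11 they were AT1G73210 (0.94), AT3G22845 (0.92) and ARAC5 (0.90), for BZIP2 AT1G80150, AT3G53850 and AT5G43790 (0.98 each), and for BZIP1 AT5G43020 (0.96), AT5G39030 (0.95) and AT1G67510 (0.94). Between members r was highest for BZIP11 and BZIP44 (0.80) and lowest for BZIP1 and BZIP44 (-0.68). These 14 means share libraries and heat times, so r is a description with no test.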

How the data were processed

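Values are a score that the authors deposited under the name of normalized counts, 1 for each transcript in each lane; they are whole numbers but not raw counts, so no count test was used. The submitters' processing notes name kallisto, sleuth and TAIR10; no source used here gives the scaling method. A table of comparisons per transcript holds log2 fold changes and adjusted p-values that the authors deposited, used only as an alternative. The 2 lanes of each library were averaged (their correlation on the log2 scale was 0.905 to 0.958), transcripts were summed to genes, and log2(value + 1) was taken, so fold changes of low genes are understated. The filter was a value of 10 or more in 3 or more libraries, which 20747 genes passed, all 5 members among them. Tests used limma 3.58.1 (R 4.3.3), fitting 14 group means with a variance trend, and Benjamini-Hochberg adjustment over all genes within each of 31 comparisons, and were tested on simulated data. Series text calls the 3 libraries of a group biological replicates, and p-values measure the spread between them. Of 273 pairs of libraries with the same replicate number, 91 correlated over 0.1; the labels do not say what a number marks, and pairing was taken only where every pair passed 0.1, so the main tests used no block. Tables and figures were made in Python 3.11.15 (matplotlib 3.10.9, numpy 2.4.6, pandas 2.3.3). Transcript identifiers were matched to RefSeq TAIR10.1 (48148, 99.6%), whose nuclear sequence was used for uORFs and promoters; every printed uORF reached its stop in frame. Members, gene lists, markers and tests were chosen with earlier results of these data known. Named genes were the members, the checks UPF1, UPF3, HSP101 and HSFA2, the 3 genes most like each member, and up to 3 called genes of each list and direction with the largest change. HSFA2 stood at 159652 ± 2109 (SD, n = 3) in WT at 90 min, against 112 ± 26.0 at 0 min. Alternatives were the pseudocount (0.5 and 5), no filter, scaling to equal totals or by median of ratios, each lane alone, no variance trend, only the groups compared, each library left out, a replicate block and the authors' values.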

Additional observations from a re-analysis of the deposited data

Results flagged for a closer look

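The heat response of BZIP1 differed between upf and WT. The change from 0 min in upf was less negative than that in WT by 1.48 on the log2 scale at 30 min, 1.42 at 45 min and 1.40 at 90 min (limma, adjusted p = 0.00209, 0.00156 and 0.00184). Part of each value is the 0 min difference of upf over WT, which was -0.45 and not called.

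For BZIP2 the difference between the genotypes in the change from 0 min was 1.40 at 45 min and 1.62 at 90 min (limma, adjusted p = 0.00805 and 0.00191). All 3 heated upf libraries of BZIP2 were above all 3 heated WT libraries at both times. The unheated libraries did not overlap either, at 1723.5 to 2129 in upf and 1384.5 to 1544.5 in WT. The order of the heated libraries alone therefore does not show a difference in the change from 0 min.

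The effect of CHX on BZIP1 was larger after 90 min of heat than after 15 min, by 1.23 on the log2 scale (limma, adjusted p = 0.00218).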

How the results depend on the processing

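Pseudocounts of 0.5 and 5, no filter, no variance trend and fits of only the groups compared left every count of called members as it was. Scaling to equal totals gave 5 member values called lower in upf heat in place of 0, 0 lower with CHX in place of 3 and 2 higher for CHX at 90 against 15 min in place of 1. It also ended the higher calls in WT heat of BZIP44 at 15 and 90 min and of BZIP11 at 30 min. In upf heat it ended those of BZIP44 at 15 min and BZIP11 at 45 min, and with CHX against unheated WT that of BZIP1 at 15 min. BZIP1 in upf over WT at 45 and 90 min and BZIP2 for CHX at 45 min became called higher. Median-of-ratios scaling gave 2 values higher in upf against WT in place of 4. With each library left out these counts ran from 0 to 1 (lower in upf heat), 2 to 5 (higher in upf against WT) and 0 to 2 (CHX at 90 against 15 min); the cause was not tested. A replicate block changed no call, and the correlations of the 273 pairs with the same replicate number ran from -0.40 to 0.49 (median 0.028; 22 of 42 libraries were closest to their own number, a hint from the data and not the design). Of 85 values in the authors' deposited table, 82 had the same direction and call.

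Signs turned only for values that were not called. With equal totals BZIP11 was -0.41 in WT and -0.27 in upf at 90 against 0 min, -0.17, -0.33 and -0.082 with CHX at 30, 45 and 90 min against unheated WT, 0.084 and 0.045 in upf over WT at 0 and 15 min, and 0.32 for CHX at 90 min; BZIP1 was -0.18 with CHX at 90 min against unheated WT, and BZIP53 was 0.10 and 0.30 for CHX at 30 and 45 min. With median-of-ratios scaling BZIP1 was 0.017 in upf at 30 against 0 min and -0.0021 in upf over WT at 15 min, BZIP11 was -0.030 in upf over WT at 90 min and 0.0087 in the genotype difference at 15 min, and BZIP44 was -0.030 for CHX at 90 against 15 min. In unheated upf over WT BZIP11 was 0.0011 with a pseudocount of 5, and it was 0.064 as the authors' deposited table gives it. In lane 1 alone BZIP11 was -0.037 and -0.10 with CHX at 30 and 45 min against unheated WT, 0.041, -0.14 and -0.016 in upf over WT at 15 min, at 90 min and on the mean, and 0.26 and 0.053 in the genotype difference at 15 and 30 min; BZIP44 was -0.065 for CHX at 90 against 15 min. In lane 2 alone BZIP11 was 0.13 with CHX at 15 min against unheated WT, 0.21 in unheated upf over WT and -0.030 in the genotype difference at 90 min, and BZIP53 was -0.0034 in upf over WT at 15 min.

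Leaving out each library turned signs as follows. BZIP11 ran from -0.21 to 0.31, -0.30 to 0.24, -0.24 to 0.25 and -0.013 to 0.11 in upf over WT at 0, 15 and 90 min and on the mean, from -0.31 to 0.24 and -0.29 to 0.25 in the genotype difference at 15 and 90 min, from -0.11 to 0.049, -0.15 to 0.23 and -0.082 to 0.18 with CHX at 15, 30 and 45 min against unheated WT, and from -0.34 to 0.022 for CHX at 90 min. BZIP1 ran from -0.18 to 0.049 in upf at 30 against 0 min and from -0.16 to 0.12 in upf over WT at 15 min. BZIP44 ran from -0.11 to 0.35 in the genotype difference at 15 min and from -0.17 to 0.28 for CHX at 90 against 15 min. BZIP53 ran from -0.15 to 0.18 and -0.36 to 0.063 in upf over WT at 15 and 30 min, and from -0.046 to 0.28 and -0.28 to 0.12 for CHX at 15 and 45 min. BZIP2 ran from -0.14 to 0.33 for CHX at 30 min. The transcript fits of the members gave the log2 changes of the gene fits again, except for BZIP44, which alone has a second listed transcript. Their 51 called values of 145 (49 to 53 with a library left out) are thus no further result. The 145 values share libraries, and no share over all transcripts is given beside them. Reads per gene are not known from these values, so no counting interval is given; BZIP11, at 74 to 309.5 normalized counts, was the least precise member.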

Other observations

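Among the other group S bZIP genes, 6 of 12 passed the filter on low values. In WT at 90 min BZIP7 was called higher, at a log2 change of 1.71, and BZIP3 and BZIP5 were called lower, at -3.85 and -3.01 (limma, adjusted p = 4.8e-08, 1.61e-12 and 2.22e-06). In upf at 90 min 1 of the 6 was called higher and 2 lower, the lower ones again BZIP3 and BZIP5, at -3.51 and -1.92. Over all genes 12.2% were called higher and 23.6% lower in WT at 90 min, and 11% and 20.1% in upf. With CHX as a mean over the 4 times BZIP3 was 2.02 and BZIP5 was 2.16 higher on the log2 scale than with heat alone (adjusted p = 7.85e-13 and 2.75e-09). Between upf and WT at 90 min BZIP3 differed by 0.23 and BZIP5 by 1.06, with adjusted p-values of 0.627 and 0.101.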
